A study of Mus musculus with 8 samples.

Results

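The heavy chain variable segments of the mouse immunoglobulin locus were examined as the genes whose symbol in the deposited tables begins with Ighv. There were 109 of them, all 109 in the table of multipotent progenitors (MPP), with 18904 genes, and 71 in that of long-term hematopoietic stem cells (LT-HSC), with 19685 genes. Each of the 71 was also in the MPP table, so 38 segments were listed for MPP alone. All 109 lay on the minus strand of chromosome 12, between positions 114816715 and 117238672 on mm9, in gene models of 90 to 679 bp with a median of 433 bp. By symbol they fell into 15 families, of which Ighv1 was the largest with 56 segments. RNA came from 4 groups of 2 libraries each: LT-HSC carrying Tet1 KO, LT-HSC WT, MPP carrying Tet1 KO and MPP WT. The cells were sorted from bone marrow of mice at 6 months of age, of a strain that the labels give as CD57BL/6, 20 weeks after transplantation with Tet1 KO or WT marrow, so every group shares the transplant. Each library was poly(A) selected from 10000 LT-HSC or 100000 MPP and sequenced as 50 bp read pairs. Tet1 encodes an enzyme that oxidises 5-methylcytosine in DNA. The part of Tet1 removed, the sort gates, any separation of host from donor cells and the number of mice behind the libraries of a group are not stated in the sources at hand. The p-values below therefore measure the spread between these libraries, which may be technical.

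An antibody heavy chain gene is assembled in developing B cells, when the RAG recombinase joins a D to a J segment and then an upstream variable segment to that DJ unit. The variable segment encodes most of the part of the heavy chain that contacts antigen, so each B cell clone and the antibody-secreting cells that descend from it transcribe mainly the segment it joined. Unrearranged segments can also be transcribed from their own promoters as germline transcripts in B cell progenitors. A count over a segment does not separate these kinds of RNA, and they cannot be told apart here. Segments lying closest to the D cluster are called D-proximal and those farthest from it D-distal, and segments of similar sequence form a family.

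The sequences of 5 segments are shown because large differences below fell on them and because near-identical neighbours limit how far a 50 base read can be assigned. They are coding sequences of GENCODE release M21 on GRCm38, taken by symbol and printed 5′ to 3′ on the coding (minus) strand from base 51 or 52 to the end, 300 bases each. Ighv2-6 (chr12:113716670-113717103) and Ighv2-6-8 (chr12:113796138-113796567) were each other's nearest segment in sequence, 94.9% identical, and capitals mark the 14 bases shown at which they differ, of 18 over the whole. In Ighv1-26 (chr12:114788372-114788805) 8 capitals mark bases that differ from its nearest segment, Ighv1-18. Ighv14-2 (chr12:113994469-113994898) has 9 capitals against Ighv14-1, and Ighv1-61 (chr12:115359140-115359572) has 4 against Ighv1-52.
Ighv2-6: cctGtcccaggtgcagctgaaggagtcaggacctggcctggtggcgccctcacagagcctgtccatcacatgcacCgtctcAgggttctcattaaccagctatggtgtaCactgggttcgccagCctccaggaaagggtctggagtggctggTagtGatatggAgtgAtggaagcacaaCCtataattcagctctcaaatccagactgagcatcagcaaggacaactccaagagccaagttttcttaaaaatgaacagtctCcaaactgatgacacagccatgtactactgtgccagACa
Ighv2-6-8: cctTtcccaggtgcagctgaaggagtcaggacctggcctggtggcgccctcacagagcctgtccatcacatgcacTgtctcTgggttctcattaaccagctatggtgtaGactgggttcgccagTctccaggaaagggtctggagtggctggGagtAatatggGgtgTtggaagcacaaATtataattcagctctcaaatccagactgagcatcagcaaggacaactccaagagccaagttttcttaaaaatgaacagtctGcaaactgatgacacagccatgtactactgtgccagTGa
Ighv1-26: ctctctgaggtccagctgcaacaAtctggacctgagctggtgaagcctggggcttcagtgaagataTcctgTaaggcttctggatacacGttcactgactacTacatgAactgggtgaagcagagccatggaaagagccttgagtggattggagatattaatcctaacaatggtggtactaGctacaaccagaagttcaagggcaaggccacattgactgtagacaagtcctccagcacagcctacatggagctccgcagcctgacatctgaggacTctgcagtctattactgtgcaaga
Ighv14-2: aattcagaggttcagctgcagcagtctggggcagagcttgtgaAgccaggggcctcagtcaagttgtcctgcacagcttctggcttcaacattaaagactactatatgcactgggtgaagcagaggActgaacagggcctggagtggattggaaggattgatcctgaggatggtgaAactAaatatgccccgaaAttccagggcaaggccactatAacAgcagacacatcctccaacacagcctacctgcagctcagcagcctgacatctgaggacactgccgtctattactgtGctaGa
Ighv1-61: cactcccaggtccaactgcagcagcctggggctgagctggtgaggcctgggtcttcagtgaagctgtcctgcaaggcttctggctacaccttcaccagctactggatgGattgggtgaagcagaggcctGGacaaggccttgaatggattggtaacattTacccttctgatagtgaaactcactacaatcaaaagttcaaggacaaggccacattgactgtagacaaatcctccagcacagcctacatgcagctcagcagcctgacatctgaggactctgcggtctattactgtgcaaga
All 109 symbols were found in that annotation, but only 21 of the 109 gene identifiers were, and 3 of those 21 carried another symbol there (Ighv7-1, Ighv7-3 and Ighv13-2). The positions of these sequences are on GRCm38 and are not those of the deposited tables, which use mm9. Among the 97 segments with a usable coding sequence, the nearest other segment was 74.0% to 99.7% identical, with a median of 95.4%. A median of 23.5% of a segment's 50 base windows occurred in another Ighv segment, 9 segments shared none and 15 shared more than 50% of theirs. Of the segments shown, Ighv2-6 had 25.6% of its windows in some other segment, Ighv2-6-8 36.2%, Ighv1-26 49.0%, Ighv14-2 37.1% and Ighv1-61 61.9%. Counted against the nearest segment alone, Ighv2-6 and Ighv2-6-8 shared 17.6% of their windows, Ighv1-26 had 22.5% of its windows in Ighv1-18, Ighv14-2 had 29.1% in Ighv14-1, and Ighv1-61 and Ighv1-52 shared 57.6%. The handling of reads that match several places is not given, so how counts were divided within such pairs is uncertain.

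Library totals were 4976459 to 5479731 counts in LT-HSC and 11928659 to 12504581 in MPP. Counts over Tet1 itself were 336 and 379 in the LT-HSC KO libraries, against 332 and 428 in LT-HSC WT (log2 -0.09, adjusted p = 0.765). They were 765 and 855 in the MPP KO libraries, against 1207 and 1323 in MPP WT (log2 -0.62, SE 0.09, adjusted p = 0.0282). Tet1 counts thus left the LT-HSC genotypes unseparated, and LT-HSC KO below is the group so labelled. Over 4 Y-linked genes the sum was 66 and 73 in LT-HSC KO libraries, against 786 and 882 in LT-HSC WT, and 36 and 69 in MPP KO libraries, against 1979 and 2093 in MPP WT. Genotype and the sex of the cells therefore cannot be told apart in any comparison below.

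In MPP the Ighv segments together took up a larger part of the library in the KO than in WT. They held 248818 and 187164 counts in the KO libraries, or 1.99% (95% Wilson interval 1.98 to 2.00%) and 1.51% (1.503 to 1.52%) of all counts, against 91972 and 71426 counts in the WT libraries, or 0.771% (0.766 to 0.776%) and 0.594% (0.589 to 0.598%). Both KO libraries lay above both WT libraries, and in each genotype the first library lay above the second. On the CPM scale, which divides each count by the library total, the sum was 17495.5 ± 3398 in KO and 6824 ± 1254 in WT (SD, n = 2 each), a 2.56-fold difference. Without any 1 of the 4 libraries the log2 ratio of the summed share stayed between 1.15 and 1.56, beside 1.36 with all of them. No test was made of this sum, and with 2 libraries a group an exact permutation test could not pass 0.05. In bulk samples more cells of a type and more RNA per cell cannot be told apart.

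In LT-HSC the same segments were scarce. They held 732 and 389 counts in the KO libraries, or 0.0137% and 0.00769% of all counts, against 740 and 262 in the WT libraries, or 0.0135% and 0.00526%. The KO and WT libraries overlapped, and the spread within each genotype was larger than the distance between them. The sum was 107 ± 42.3 CPM in KO and 93.8 ± 58.3 CPM in WT (SD, n = 2 each). Its log2 ratio was 0.19, but it turned negative without KO replicate 1 (-0.29) or without WT replicate 2 (-0.34). The summed level in MPP was 164-fold that in LT-HSC for the KO and 72.7-fold for WT. This compares levels across tables that hold different cell inputs and depths. It also sets 109 segments in MPP against 71 in LT-HSC. The 38 listed for MPP alone held 5.17% and 5.53% of Ighv counts in MPP KO, against 10.2% and 10.5% in MPP WT.

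**Figure D1:**
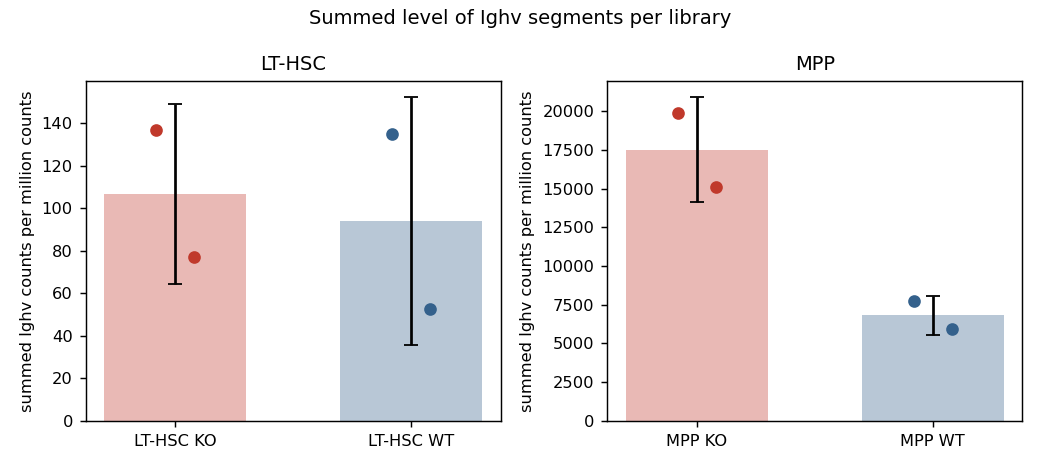
Summed level of all listed Ighv segments in each library, in CPM, for LT-HSC (left) and MPP (right), with separate axes. Points are libraries, bars are group means and error bars are the SD of 2 libraries: the MPP KO libraries sit above the MPP WT libraries, while the LT-HSC libraries overlap.

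Segment by segment, 46 Ighv segments rose and 13 fell in MPP KO among the 107 whose counts passed the low count filter, and 48 did not pass the test (edgeR's quasi-likelihood test, Benjamini-Hochberg adjusted p under 0.05 over all genes). Over all 14902 genes tested in MPP, 4.74% were called higher and 2.46% lower. The median log2 fold change of the tested segments was 0.87, beside -0.01 for all genes. Both segments left out by the filter were low everywhere: Ighv3-3 had 11 and 3 counts in KO libraries against 2 and 5 in WT, and Ighv8-6 had 3 and 4 in KO libraries against 0 and 3 in WT. Over all 109 segments, both KO libraries lay above both WT libraries in 64 and below them in 22, and the groups overlapped in 23. The same was true of 20.9% (above) and 37.8% (below) of all genes tested. In the authors' deposited table, 60 segments had a false discovery rate under 0.05 with a higher level in MPP KO and 15 with a lower one.

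Ighv2-6, a D-proximal segment at 114954886 to 114955314, had the largest rise. It had 25857 and 18753 counts in the MPP KO libraries, against 216 and 162 in the MPP WT libraries. The log2 fold change was 6.90 (SE 0.25, adjusted p = 0.000828). Both KO libraries stood far above both WT libraries, and Ighv2-6 went to 10.4% and 10.02% of all Ighv counts in KO, against 0.235% and 0.227% in WT. Per kilobase of gene model it had the highest level of any segment in MPP KO, at 4172.5 CPM per kb, against 36.8 CPM per kb in WT. Its nearest segment, Ighv2-6-8, had 2631 and 2179 counts in KO libraries against 300 and 223 in WT, a rise of 3.22 on the log2 scale (adjusted p = 0.00231). This neighbour is named for its likeness in sequence, after its values were seen, and the share of its counts that came from Ighv2-6 reads was not tested.

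Of the other large rises, 2 were in the small Ighv7 family. Ighv7-4 had 528 and 400 counts in MPP KO libraries against 20 and 18 in WT, which gave a log2 fold change of 4.62 (adjusted p = 0.00149), and none of its 50 base windows occurred in another segment. Ighv7-3, whose gene identifier belongs to Ighv7-1 in the GRCm38 annotation, had 11026 and 8643 counts in KO libraries against 485 and 406 in WT (log2 fold change 4.48, SE 0.17, adjusted p = 0.000919). The symbols Ighv7-1 and Ighv7-3 are exchanged between the deposited table and that annotation, so the symbol of this segment is uncertain while its position, 115391395 to 115391855 on mm9, is the table's own. Ighv1-31 had 3117 and 1983 counts in KO libraries against 137 and 95 in WT, which gave a log2 fold change of 4.48. Ighv1-49 was scarce in both genotypes: 34 and 37 counts in KO stood against 2 and 1 in WT, and the ratio of the summed normalised counts was 22.8 with a 95% counting interval of 7.48 to 113. For all 4 segments both KO libraries stood well above both WT libraries.

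The Ighv1 family held the next most abundant segments of MPP KO, and each of the 3 named here rose. Ighv1-26 had 23579 and 18412 counts in KO libraries against 2193 and 1644 in WT (log2 fold change 3.47, SE 0.20, adjusted p = 0.00265). Ighv1-19 had 15837 and 12547 counts in KO libraries against 1883 and 1432 in WT (log2 fold change 3.12, SE 0.18, adjusted p = 0.00301). Ighv1-80, from the D-distal end, had 15169 and 14761 counts in KO libraries against 1998 and 1683 in WT (log2 fold change 3.04, SE 0.11, adjusted p = 0.000828). Per kilobase these came next after Ighv2-6 in MPP KO, at 3883, 2625 and 2775 CPM per kb. In MPP WT the order was another one: Ighv1-9 led with 1147 CPM per kb, followed by Ighv3-6 with 884, Ighv14-2 with 690, Ighv11-2 with 670 and Ighv5-16 with 652.

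The leading segment of MPP WT, Ighv1-9, had nearly equal counts in both genotypes, 6786 and 5151 in KO libraries against 6625 and 5293 in WT. Its log2 fold change was 0.02 (SE 0.17, adjusted p = 0.96), and its share of Ighv counts was 2.73% and 2.75% in KO against 7.20% and 7.41% in WT. Ighv3-6, named after its values were seen, likewise had 5239 and 4187 counts in KO libraries against 4827 and 4294 in WT (log2 fold change 0.07, adjusted p = 0.791). Neither difference was larger than the spread between the libraries of a genotype.

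Among the 13 segments that fell in MPP KO, Ighv14-2 was the most abundant in WT. It had 659 and 423 counts in KO libraries against 4106 and 3002 in WT (log2 fold change -2.70, SE 0.26, adjusted p = 0.00977), which took it to 0.265% and 0.226% of Ighv counts in KO, against 4.46% and 4.20% in WT. Ighv3-2, which the GRCm38 annotation lists as a pseudogene, had 12 and 9 counts in KO libraries against 129 and 103 in WT (log2 fold change -3.43, adjusted p = 0.00571). These segments were low in both KO libraries and high in both WT libraries. Ighv2-7 had 6 and 9 counts in KO libraries against 81 and 71 in WT (log2 fold change -3.30), and none of its 50 base windows was shared with another segment. Ighv5-15 had 64 and 52 counts in KO libraries against 277 and 221 in WT (log2 fold change -2.08). Ighv3-5 had 22 and 23 counts in KO libraries against 100 and 81 in WT (log2 fold change -1.98). Thus rises and falls of more than 2 on the log2 scale occurred among segments of the same locus in the same libraries.

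Leaving out either MPP WT library ended every MPP call: edgeR then called 0 genes of the table, with the called segments named here at adjusted p of 0.256 to 0.326, although 62 segments were higher and 14 lower at an unadjusted p under 0.05 without WT replicate 1, and 46 and 18 without WT replicate 2. DESeq2 on the same 3 libraries, tried after this was seen, called 35 to 48 segments higher and 6 to 11 lower over the 4 omissions, and all 59 segments kept their direction in every omission with either tool. Without MPP KO replicate 1 edgeR called 30 segments higher and 8 lower, without MPP KO replicate 2 it called 42 and 5, and the call of Ighv3-5 ended in both (adjusted p = 0.0666 and 0.0608).

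**Figure D2:**
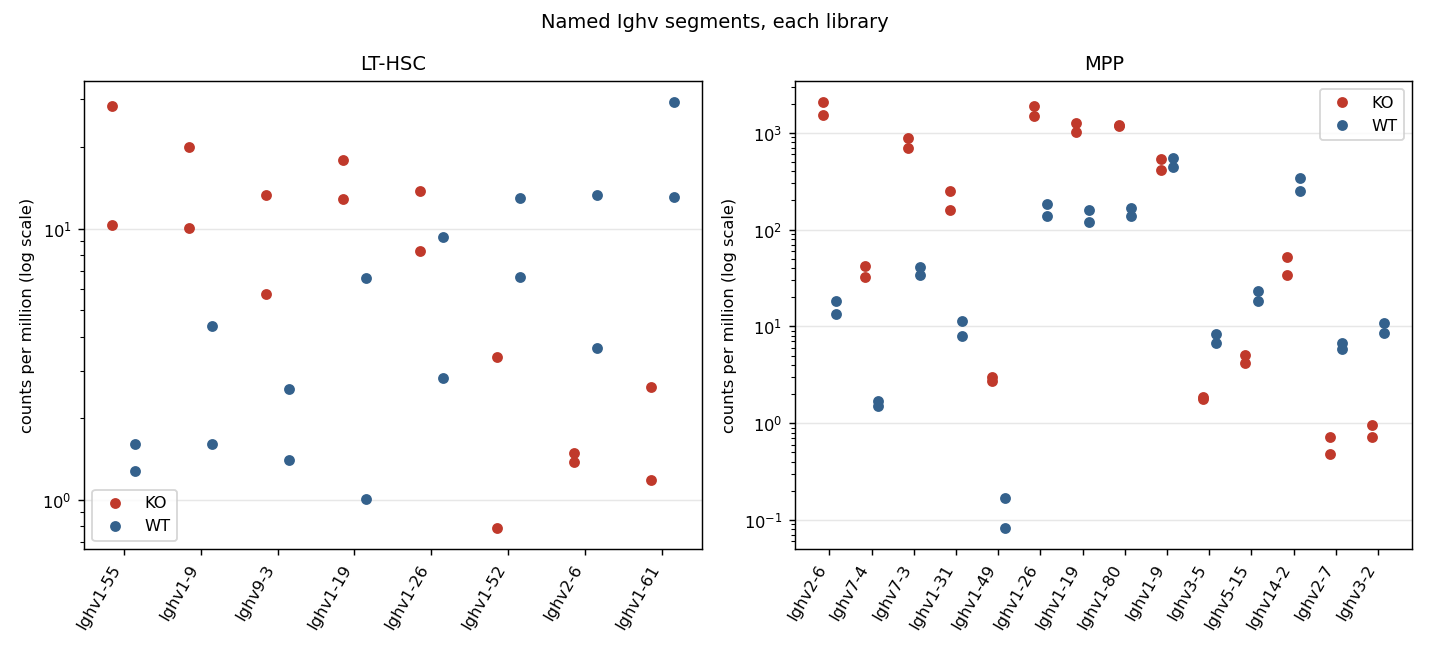
Level of the named Ighv segments in each library, in CPM on a log scale, in LT-HSC (left) and MPP (right), with KO points left of WT points for each segment. In MPP the KO points of Ighv2-6 stand far above its WT points (log2 fold change 6.90), those of Ighv14-2 stand below (-2.70) and those of Ighv1-9 overlap with WT (0.02).

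The Ighv counts of MPP KO were spread over fewer segments than those of MPP WT. All 109 segments had at least 1 count in both MPP KO libraries, and 108 and 109 had one in the WT libraries. The effective number of segments, the inverse of the summed squared shares, was 25.5 and 24.1 in KO against 41.3 and 39.6 in WT. The 5 most abundant segments held 36.8% and 39.1% of Ighv counts in KO, against 25.7% and 26.8% in WT. Put another way, 10 and 9 segments sufficed to hold 50% of the counts in KO, against 16 and 15 in WT. At an equal depth of 250 counts, the counts would be expected to fall on 61.4 and 61.1 segments in KO, against 71.0 and 70.7 in WT. On each of these measures after the first both MPP KO libraries lay on the same side of both MPP WT libraries. In LT-HSC the effective number was 9.52 and 11.8 in KO against 12.2 and 10.7 in WT, and the expected number at 250 counts was 36.2 and 44.7 in KO against 43.9 and 47.4 in WT, so the genotypes overlapped on both. The 5 most abundant segments held 68.2% and 61.4% of the few LT-HSC counts in KO, against 52.8% and 53.1% in WT. Within the MPP Ighv pool, 33 segments had a larger share in both KO libraries than in both WT libraries and 63 a smaller one. Shares add up to a fixed total, so gains by abundant segments lower the shares of others. In CPM, 64 segments lay above WT in both KO libraries and 22 below. Of the 46 segments called higher, 33 also had a larger share and 6 a smaller one.

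In MPP the order of segments was nearly the same in the libraries of one genotype and differed between genotypes. Over the 109 segments in MPP, Spearman's rho between shares was 0.991 to 0.992 for libraries of the same group and 0.659 to 0.681 for libraries of different genotype. The part of the pool that a pair of libraries held in common was 95.1% to 96.2% within a group and 56.7% to 57.7% between genotypes. In LT-HSC, over 71 segments with few counts, rho was 0.632 to 0.696 within a group and 0.353 to 0.624 between genotypes, and 73.3% to 78.5% and 38.04% to 40.3% of the pool was held in common. Libraries of the same genotype but of different populations had rho of 0.380 to 0.554 and 43.1% to 51.3% in common, and libraries that differed in both had rho of 0.259 to 0.671 and 42.2% to 62.1% in common. Every LT-HSC library, of either genotype, had a higher rho with the MPP KO libraries than with the MPP WT libraries. LT-HSC WT replicate 1 had rho of 0.671 and 0.661 with MPP KO, against 0.394 and 0.380 with MPP WT. For LT-HSC WT replicate 2 rho was 0.548 and 0.506, against 0.487 and 0.449. LT-HSC KO replicate 1 had 0.554 and 0.517, against 0.411 and 0.377, and KO replicate 2 had 0.423 and 0.403, against 0.285 and 0.259. By Pearson's correlation of the shares this order held for the other LT-HSC libraries but not for LT-HSC KO replicate 1. Its values overlapped, at 0.456 and 0.438 with MPP KO against 0.468 and 0.444 with MPP WT. These correlations run across segments of one locus, which are not independent, and are given as descriptions. Within MPP the second library of a group also carried fewer Ighv counts almost throughout: among segments with at least 100 counts, replicate 2 lay below replicate 1 in 89 of 94 segments in KO, at a median ratio of 0.742, and in 88 of 90 in WT, at 0.759.

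**Figure D3:**
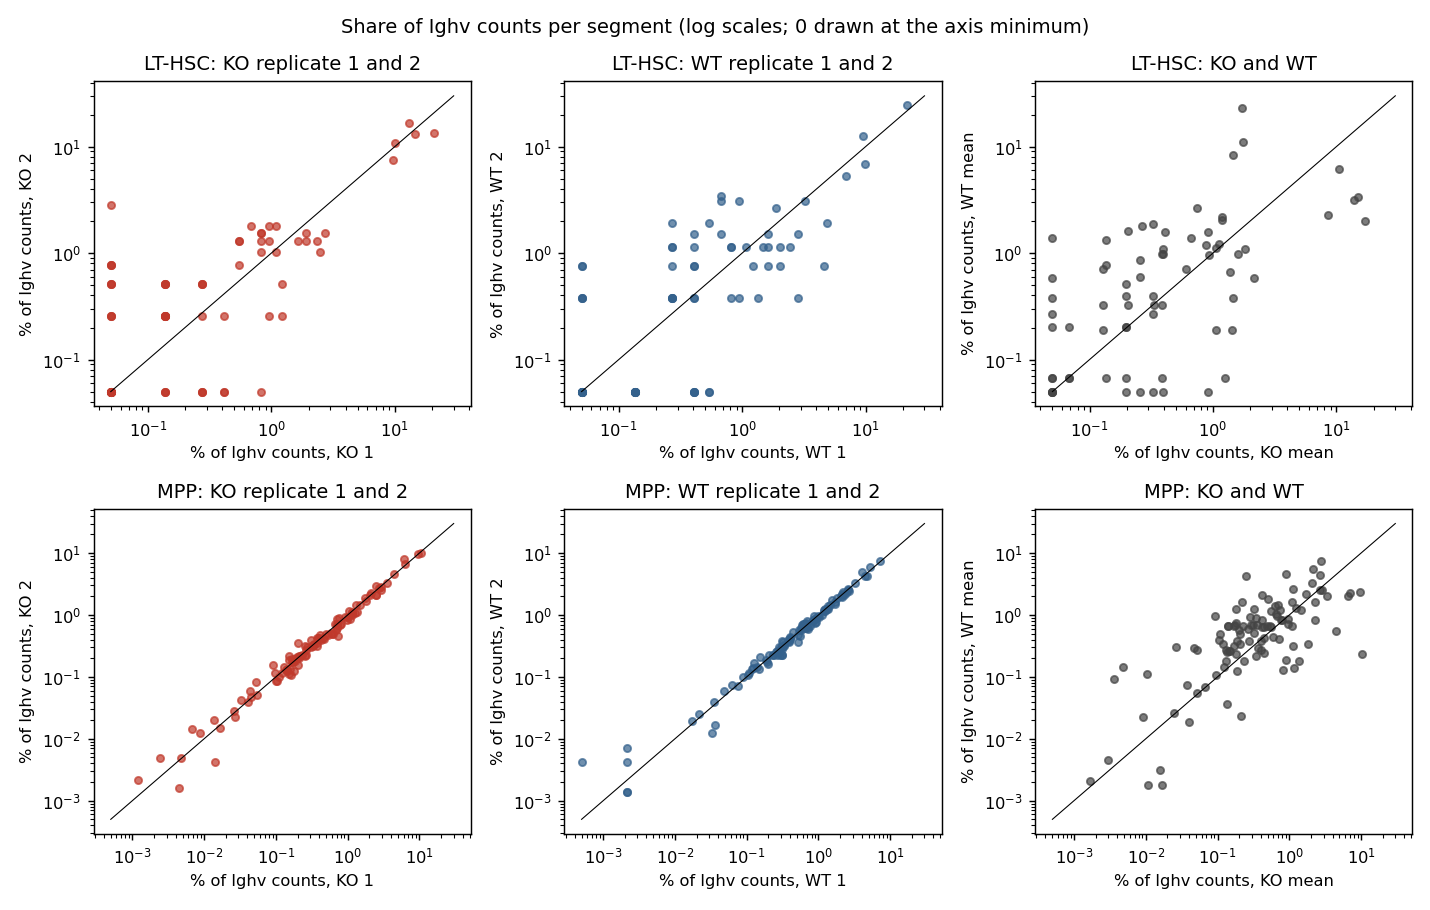
Share of Ighv counts held by each segment, in percent on log scales, with a line of equality and 0 drawn at the axis minimum: KO replicates (left), WT replicates (middle) and group means of KO against WT (right), for LT-HSC (top) and MPP (bottom). The MPP replicates lie along the line, at rho of 0.991 to 0.992, while the genotypes scatter around it.

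By family, the Ighv1 segments made up most of the change in MPP. Of the 56 Ighv1 segments, all tested, 28 rose and 2 fell, and the family held 62.7% and 62.2% of Ighv counts in KO against 51.1% and 49.5% in WT. The 9 Ighv2 segments held 13.9% and 13.9% in KO against 4.80% and 4.92% in WT, with 4 rises and 1 fall, and Ighv2-6 alone made up 10.4% and 10.02% in KO. In the Ighv7 family 3 of 4 segments rose and 1, Ighv7-1, fell, and its share was 5.02% and 5.16% in KO against 2.13% and 2.35% in WT. These 3 families gained share in both KO libraries.

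Several other families lost share. Ighv14 lost most, with 1.16% and 1.14% of Ighv counts in KO against 8.48% and 8.27% in WT, and 3 of its 4 segments fell while none rose. Its summed level was 230 and 171 CPM in KO against 654 and 491 CPM in WT. Of the 5 tested Ighv3 segments 3 fell and none rose, and the family held 2.34% and 2.49% in KO against 6.28% and 7.13% in WT. The summed Ighv3 level overlapped between genotypes, however, at 466 and 376 CPM in KO against 484 and 424 CPM in WT. Its smaller share thus went with a larger Ighv total rather than with a clear fall in level. Ighv11 held 1.12% and 0.977% in KO against 5.38% and 5.004% in WT, with 1 of 2 segments called lower. The level of Ighv11 was 222 and 147 CPM in KO against 414 and 297 CPM in WT. The Ighv5 family was mixed, with 4 rises and 1 fall among 9 segments. In Ighv8 2 of 6 tested segments rose, Ighv6 and Ighv10 had 1 rise each among 2 segments, and Ighv9 had 1 fall among 4. The single segments of Ighv12, Ighv13 and Ighv15 rose and that of Ighv4 was not called. The Ighv13 segment, Ighv13-2, has the gene identifier of Ighv6-7 in the GRCm38 annotation, so whether it belongs to Ighv13 or Ighv6 is uncertain.

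Along the locus, the falls were mostly near the D-proximal end. When the 109 segments were divided by position into 3 groups of nearly equal number, the 35 tested D-proximal segments had 11 rises and 10 falls, the 36 middle ones 21 rises and 2 falls, and the 36 D-distal ones 14 rises and 1 fall. The median log2 fold change was 0.30, 1.34 and 1.09 in that order. The D-proximal segments held 29.2% and 29.5% of Ighv counts in MPP KO against 36.0% and 36.5% in WT. The middle segments held 38.9% and 39.2% in KO against 33.7% and 34.7% in WT, and the D-distal ones 31.9% and 31.3% in KO against 30.3% and 28.8% in WT. Position and family are not independent in this locus, because the Ighv2, Ighv5, Ighv14 and Ighv3 segments lie mainly at the D-proximal end and Ighv1 segments farther out. Spearman's rho between distance from the D-proximal end and the log2 fold change was 0.226 over 107 segments, so position ordered the changes only loosely. Ighv2-6, the largest rise, itself lay among the D-proximal segments.

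**Figure D4:**
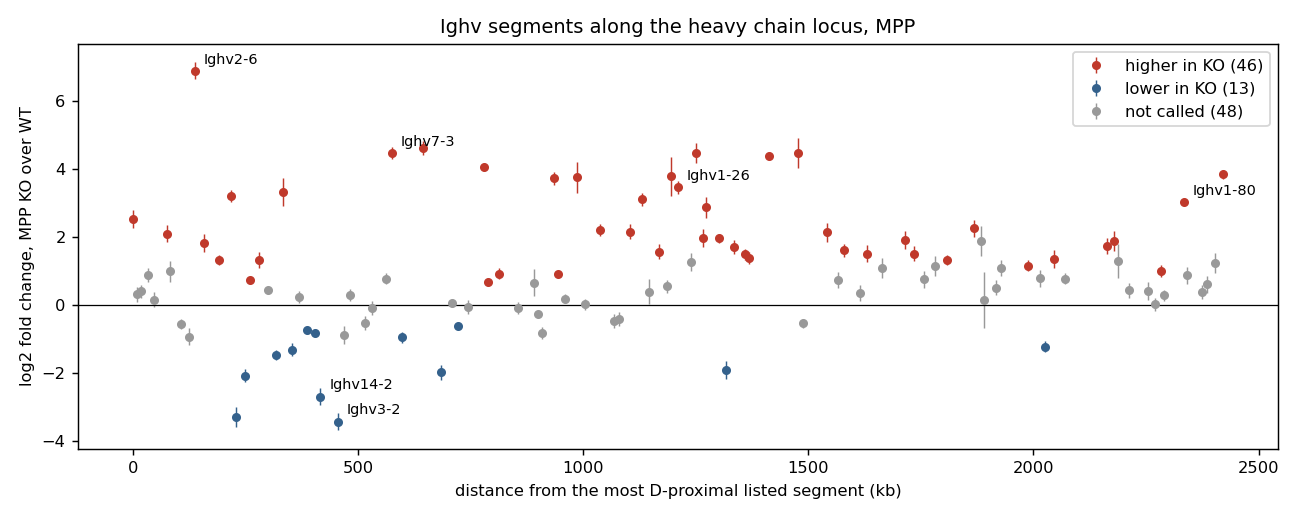
Log2 fold change of MPP KO over WT for the 107 tested Ighv segments against distance in kb from the most D-proximal listed segment, with error bars of 1 SE, coloured by call. Of the 13 falls, 10 are among the D-proximal segments, where Ighv2-6 also stands as the highest point, and rises occur along the whole locus.

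In LT-HSC only 8 of the 71 listed segments had enough counts to be tested, and the other 63 were not. Of these 8, 4 rose, 3 fell and Ighv1-26 was not called, where 22.5% of all 15684 tested genes were called higher and 10.9% lower. The median count of a listed segment was 2 in both KO libraries and 3 and 1 in the WT libraries, and 21 and 20 segments were at 0 in KO against 14 and 23 in WT. Over all 71, both KO libraries lay above both WT libraries in 15 and below in 15, and overlapped in 41. Among the 8 tested segments 4 lay above and 3 below. The background over all tested genes was 36.4% above and 29.4% below. It leaves out genes with too few counts, so it is not like for like with the 71. A segment could pass the filter through the group in which it was high, so the calls of these 8 do not speak for the others. The authors' deposited table has 10 segments higher and 9 lower in LT-HSC KO at a false discovery rate under 0.05.

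The segments that led the LT-HSC KO libraries were not those that led LT-HSC WT. Ighv1-55 had 151 and 52 counts in KO libraries against 7 and 8 in WT (log2 fold change 3.73, SE 0.61, adjusted p = 0.00258). It held 20.6% (95% Wilson interval 17.9 to 23.7%) and 13.4% (10.3 to 17.1%) of Ighv counts in KO, against 0.946% (0.459 to 1.94%) and 3.05% (1.56 to 5.91%) in WT. Ighv1-61 went the other way, with 14 and 6 counts in KO libraries against 160 and 65 in WT (log2 fold change -3.47, SE 0.57, adjusted p = 0.00268), and held 1.91% and 1.54% of Ighv counts in KO against 21.6% and 24.8% in WT. The counts of the KO and WT libraries did not overlap for either segment.

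The call of Ighv1-61 held in each omission of 1 LT-HSC library with edgeR and with DESeq2, and that of Ighv1-55 held in each omission with edgeR but ended in DESeq2 without KO replicate 1 (2.81, adjusted p = 0.113). The other 5 calls each ended in 1 or more of the edgeR omissions. Ighv1-9 had 107 and 51 counts in KO libraries against 24 and 8 in WT (log2 fold change 2.30, adjusted p = 0.0144). Ighv9-3 had 71 and 29 in KO libraries against 14 and 7 in WT (2.24, adjusted p = 0.0192), and Ighv1-19 had 96 and 65 in KO libraries against 36 and 5 in WT (1.97, adjusted p = 0.0468). All 3 calls ended without KO replicate 1, with adjusted p of 0.158, 0.248 and 0.221. Ighv2-6, the largest rise in MPP, fell in LT-HSC, where it had 8 and 7 counts in KO libraries against 73 and 18 in WT (log2 fold change -2.57, SE 0.72, adjusted p = 0.0249). That call ended without KO replicate 1 (0.113), without KO replicate 2 (0.086) or without WT replicate 1 (0.287). Ighv1-52, near-identical to Ighv1-61, had 18 and 4 counts in KO libraries against 71 and 33 in WT (log2 fold change -2.23, adjusted p = 0.031), and its call ended without KO replicate 2 (0.159) or WT replicate 1 (0.0518). Since 57.6% of the 50 base windows of each of these segments occurred in the other, how far their falls are separate was not tested. Ighv1-26 had 74 and 42 counts in KO libraries against 51 and 14 in WT, which gave a log2 fold change of 0.84 (adjusted p = 0.3); among the edgeR omissions it passed the test without WT replicate 1 (2.00, adjusted p = 0.0014). With no filter on low counts, the calls of Ighv9-3, Ighv1-19, Ighv2-6 and Ighv1-52 were also lost, at adjusted p of 0.0505, 0.104, 0.0619 and 0.0715. Without LT-HSC WT replicate 2, on the other hand, 7 segments were called lower, among 21 that then passed the filter. Every one of the 7 called segments kept its direction in each of these fits.

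Set side by side, 3 segments were called in both populations. Ighv1-19 and Ighv1-55 rose in both; in MPP Ighv1-55 had 7235 and 4727 counts in KO libraries against 2459 and 1768 in WT (log2 fold change 1.52, SE 0.25, adjusted p = 0.0338), and its call ended without MPP KO replicate 1 (1.19, adjusted p = 0.0791). Ighv2-6 fell in LT-HSC KO and rose in MPP KO. The segment that led the falls in LT-HSC, Ighv1-61, had 1509 and 907 counts in MPP KO libraries against 649 and 453 in MPP WT (log2 fold change 1.15, adjusted p = 0.0801), and did not pass the test there. A fit of all 8 libraries asked whether the KO over WT ratio differed between the populations. Of the 71 segments in it, 13 had a lower ratio in LT-HSC than in MPP and 1 a higher one, where 8.5% and 13.6% of 16551 genes did. Only 5 of these 14 had enough LT-HSC counts to be tested there: Ighv2-6, Ighv1-61, Ighv1-52 and Ighv1-26 with a lower ratio and Ighv1-9 with a higher one. The other 9 entered the fit through their MPP counts and had 3 to 46 counts over the 4 LT-HSC libraries together, and in 5 of the 9 the LT-HSC genotypes overlapped. The values of these 9 do not establish a fall in LT-HSC. Ighv2-6 had the largest such difference, -9.49 on the log2 scale for LT-HSC minus MPP (SE 0.75, adjusted p = 0.000527), and Ighv1-9 was the 1 segment with a higher ratio in LT-HSC, at 2.27 (adjusted p = 0.0239). The count of 14 lay between 4 and 16 when a library was left out, with 8 and 7 without LT-HSC KO replicate 1 or 2, 4 without LT-HSC WT replicate 1, 6 without MPP KO replicate 1, and 9 and 6 without MPP WT replicate 1 or 2.

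Likeness in sequence was set beside the calls. For 51 of the 59 segments called in MPP the nearest segment in sequence was also tested. It was called in the same direction for 29 of them, not called for 18 and called in the opposite direction for 4. Neighbours were matched to their calls by symbol. For Ighv7-2 and Ighv7-4 the nearest was Ighv7-3, counted as called in the same direction. As given above, its symbol is exchanged with that of Ighv7-1, which fell (log2 fold change -1.46). The direction of these matches is therefore uncertain. Ighv1-18, nearest to Ighv1-26, rose with it (8744 and 6037 counts in KO libraries against 1927 and 1408 in WT), and Ighv14-1, nearest to Ighv14-2, fell with it (459 and 341 in KO libraries against 1137 and 879 in WT). The part that reads shared within such pairs had in these calls was not tested. The median share of windows found in another segment was 22.8% for segments called higher and 23.8% for the rest.

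The rest of the antibody genes were set beside the variable segments, with lists drawn up when results of these data were known. In MPP 3 of 4 heavy chain joining segments rose, led by Ighj1 with 8070 and 5667 counts in KO libraries against 1303 and 1005 in WT (log2 fold change 2.59, adjusted p = 0.00727). Of 7 heavy chain constant region and J chain genes 6 rose in MPP, among them Ighg3 with 18182 and 14939 counts in KO libraries against 1084 and 1028 in WT (3.99) and Ighm, the constant region of IgM, with 237254 and 237767 in KO libraries against 112995 and 116709 in WT (1.07). Light chain variable segments of the kappa locus had 49 rises and 12 falls among 95 tested and a median log2 fold change of 0.86, where 4.74% of all genes were called higher and 2.46% lower. In LT-HSC the constant region gene of IgG1, Ighg1, had 1 and 5 counts in KO libraries against 625 and 370 in WT (log2 fold change -7.31), and the joining segment Ighj3 had 2 and 1 in KO libraries against 55 and 28 in WT, a ratio of 0.0363 with a 95% counting interval of 0.00733 to 0.110. In LT-HSC 6 constant region and J chain genes and 1 joining segment were tested, and these 2 were the ones called. Over all genes tested there, 22.5% were called higher and 10.9% lower. Whether their counts came from the same transcripts as those of any Ighv segment was not tested.

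Of 9 tested markers of antibody-secreting cells, 8 rose in MPP and none fell. Over all genes tested in MPP, 4.74% were called higher and 2.46% lower, which is the background for each MPP list here. Their summed level was 4853 and 6625 CPM in KO against 2261 and 2786 CPM in WT. Most of that sum was Igj, at 3877 and 5632 CPM in KO against 1726 and 2251 CPM in WT. Igj was also counted above with the constant region genes, so the sum is largely that 1 gene. Prdm1, which encodes a regulator of plasma cell differentiation, had 975 and 993 counts in MPP KO libraries against 302 and 308 in WT, which gave a log2 fold change of 1.71 (adjusted p = 0.00139). Igj, the J chain gene, had the most counts on this list and, unlike nearly all Ighv segments, was higher in the second library of each genotype, with 48476 and 69842 in KO libraries against 20585 and 27081 in WT. Of 9 listed B cell markers, Cd79a rose and Fcer2a fell, and the sum was 471 and 456 CPM in KO against 442 and 415 CPM in WT. Of 6 listed pro-B and pre-B cell genes 3 rose (Il7r, Igll1 and Vpreb1), with a sum of 395 and 384 CPM in KO against 299 and 288 CPM in WT. No gene of these lists that the table holds was at 0 in all MPP libraries. The same was true of the T cell, erythroid and stromal lists, so this does not set these cell types apart. Listed genes that the table lacks, among them Rag1, Rag2 and Ms4a1, are not counted in it. Stem and progenitor genes summed to 1350 and 1296 CPM in MPP KO against 1511 and 1471 CPM in WT, with 2 of 8 lower.

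In LT-HSC, where 22.5% of all tested genes were called higher and 10.9% lower, the antibody-secreting list had 1 rise and 2 falls among 7 tested genes, counts too near that background to set it apart. Its sum was 136 and 143 CPM in KO against 175 and 197 CPM in WT. B cell markers had 4 rises, among them Cr2 and Bank1, and 1 fall (Cd79b) of 9, on the same background, with a sum of 86.8 and 80.4 CPM in KO against 68.1 and 65.7 CPM in WT. All 6 erythroid genes rose, with a sum of 2784 and 1844 CPM in KO against 484 and 313 CPM in WT, and so did all 5 stromal genes, with a sum of 634 and 455 CPM in KO against 25.7 and 23.7 CPM in WT. The part of any of these cell types in the Ighv results was not tested.

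Genes that act on the locus were taken from lists of V(D)J recombination genes and of regulators. The recombination list held 12 genes, of which each deposited table had 10. Rag1 and Rag2, which encode the RAG recombinase, were absent from both by symbol, so they were not tested. Of 10 tested V(D)J recombination genes in MPP only Dclre1c, which encodes the nuclease Artemis, was called, with 401 and 432 counts in KO libraries against 290 and 304 in WT (log2 fold change 0.51, adjusted p = 0.0437). Of 12 regulators of the heavy chain locus, Pou2af1 and Irf4 rose in MPP, by 0.83 and 0.68 on the log2 scale, where 4.74% of all genes were called higher. In LT-HSC Prkdc was the 1 recombination gene of 9 that rose, and 3 of 12 regulators did, shares near or under the background of 22.5%. The 3 were Ebf1 (log2 fold change 2.00, adjusted p = 0.00198), Pax5 (1.23, adjusted p = 0.0468) and Ikzf1 (0.73, adjusted p = 0.0113).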

How the data were processed

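Poly(A) RNA was sequenced from 8 libraries, 2 for each genotype in LT-HSC and in MPP. The reads were handled with CASAVA and TopHat on mm9 per the submitters' processing notes; versions, read counter, annotation and strand setting were not found in the sources at hand. The deposited tables, 1 for LT-HSC and 1 for MPP, hold a raw count for each gene in each library, together with a log2 fold change and mean log2 CPM, a likelihood ratio score, and a p-value and false discovery rate, per the file headers. Only the counts were tested; the authors' false discovery rates are quoted as theirs.

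Counts of each table were fitted over all genes with edgeR 4.0.16 in R 4.3.3 (filterByExpr, TMM factors, quasi-likelihood test, Benjamini-Hochberg adjusted p under 0.05), without a replicate term, because the labels do not say that replicate numbers pair libraries. The interaction term was fitted on the genes that both tables list, with all 8 libraries. The fits were first checked on simulated counts. Standard errors are the fold change over the square root of the test statistic. Shares carry 95% Wilson intervals, which cover counting error only; libraries of a group differed by more than sampling noise. Levels are CPM of the library total, and per kilobase of gene model when segments are compared. A difference for which a group had a summed count of 1 to 3 is given as a ratio with its counting interval. Sequences were taken by symbol from GENCODE M21, and windows of 50 bases were compared on the coding strand with Python 3.11.15 and Biopython 1.88.

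The members, lists and tests were chosen with earlier results of these data known. Segments were named by rule: the 6 with most counts in each population, the 5 largest rises and 5 largest falls among called segments with a mean of at least 10 counts, those called in both populations and up to 5 called in the interaction. From each pathway list at most 4 called genes by fold change were to be named; Ighm, Igj, Prdm1, Ighv2-6-8, Ighv1-18, Ighv14-1, Ighv3-6, Ighv3-3 and Ighv8-6 were named after their values were seen. The alternatives were other size factors, library sizes without immunoglobulin genes, no count filter, DESeq2 1.42.0, a replicate term and each library left out.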

Additional observations from a re-analysis of the deposited data

Results flagged for a closer look

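For 8 of the named Ighv segments, among 14 in all, the KO over WT ratio differed between LT-HSC and MPP by a test of the difference itself (edgeR's interaction term, adjusted over 16551 genes), given here as log2 for LT-HSC minus MPP. For 3 of the 8, Ighv7-3, Ighv1-85 and Ighv1-80, LT-HSC counts were too few to be tested there, so the value does not establish a change in LT-HSC. Ighv2-6 differed by -9.49 (adjusted p = 0.000527): 8 and 7 counts in LT-HSC KO libraries against 73 and 18 in LT-HSC WT, and 25857 and 18753 in MPP KO libraries against 216 and 162 in MPP WT. Ighv7-3 had a fitted difference of -5.53, with 6 and 6 counts in LT-HSC KO libraries against 21 and 4 in LT-HSC WT, which overlap. Ighv1-85 had a fitted difference of -5.39 on 0 and 3 counts in LT-HSC KO libraries against 6 and 3 in LT-HSC WT, a ratio of 0.335 with a 95% counting interval of 0.0583 to 1.34; its adjusted p was 0.0079 and became 0.0617 without LT-HSC WT replicate 1. Ighv1-80 had a fitted difference of -4.88, with 9 and 1 counts in LT-HSC KO libraries against 34 and 2 in LT-HSC WT, which overlap, and without LT-HSC WT replicate 1 the difference was -1.80 (adjusted p = 0.43). Ighv1-61 differed by -4.63 (adjusted p = 0.00497), Ighv1-52 by -2.98 (adjusted p = 0.018) and Ighv1-26 by -2.64 (adjusted p = 0.0175). Ighv1-9 differed in the other direction, by 2.27 (adjusted p = 0.0239), with 107 and 51 counts in LT-HSC KO libraries against 24 and 8 in LT-HSC WT, and 6786 and 5151 in MPP KO libraries against 6625 and 5293 in MPP WT.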

How the results depend on the processing

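With other size factors, library sizes without immunoglobulin genes or DESeq2, all 59 MPP calls and all 7 LT-HSC calls on Ighv segments were kept. With no filter on low counts, 44 of 59 and 3 of 7 were kept, segments called lower in LT-HSC KO numbered 1 (3 with the filter), and over all MPP genes 397 were called higher and 178 lower (707 and 366 with it). The replicate numbers are not stated to pair libraries. Deviations of same-numbered libraries from their group means correlated at 0.42 in LT-HSC and 0.68 in MPP over all genes. Over Ighv segments they correlated at -0.77 in LT-HSC and 0.56 in MPP, so in LT-HSC the sign was the opposite one. With the replicate block, 78 Ighv segments were called higher and 22 lower in MPP KO, Ighv1-26 was also called higher in LT-HSC KO (0.93, adjusted p = 0.026), 27 were called in the interaction, 4009 genes were called lower in LT-HSC KO, and 3536 were called higher and 3698 lower in MPP KO.

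Leaving out 1 library at a time in edgeR, Ighv calls ranged from 1 to 5 higher and 1 to 7 lower in LT-HSC KO, from 0 to 42 higher and 0 to 8 lower in MPP KO, and from 4 to 16 in the interaction. Over all genes they ranged from 1946 to 4213 higher and 379 to 2543 lower in LT-HSC KO, and from 0 to 213 higher and 0 to 55 lower in MPP KO. With DESeq2 in place of edgeR, an alternative chosen after seeing the data, the ranges for Ighv were 0 to 4 higher and 1 to 4 lower in LT-HSC KO and 35 to 48 higher and 6 to 11 lower in MPP KO, and for all genes, without KO replicate 1, KO replicate 2, WT replicate 1 and WT replicate 2 in that order, 936, 1193, 1750 and 2185 higher and 249, 240, 384 and 728 lower in LT-HSC KO, and 209, 230, 222 and 210 higher and 73, 70, 43 and 53 lower in MPP KO. The log2 ratio of the summed Ighv share was -0.34 to 1.02 in LT-HSC, where it reversed without KO replicate 1 (-0.288) and without WT replicate 2 (-0.339), and 1.15 to 1.56 in MPP. The change of Ighv1-9 in MPP, which was not called, ran from -0.181 to 0.198 and reversed without KO replicate 1 (-0.181, or -0.183 with DESeq2) and without WT replicate 2 (-0.133, or -0.137). The cause of these changes was not tested. In LT-HSC the median Ighv segment had 1 to 3 counts, which limits what can be seen there.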

Other observations

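Among light chain genes the calls in MPP were mixed. Igkc, the constant region of the kappa light chain, had 134084 and 175801 counts in MPP KO libraries against 54046 and 68724 in MPP WT (log2 fold change 1.36, adjusted p = 0.0216), and 2 of the 6 kappa joining and constant genes rose. Of 5 lambda variable and constant genes, Iglc3 fell, with 920 and 833 counts in KO libraries against 1434 and 1474 in WT (log2 fold change -0.71, adjusted p = 0.012), and none rose. Iglv1 had 4991 and 4513 counts in KO libraries against 5022 and 4585 in WT (adjusted p = 0.984). The level of the antibody constant regions also differed by class: Ighg2b had 152038 and 131580 counts in KO libraries against 21402 and 19263 in WT (log2 fold change 2.82), while Ighg1 had 5743 and 4619 in KO libraries against 4787 and 3961 in WT (0.26, adjusted p = 0.306). Of 5 T cell markers 2 rose in MPP, with a sum of 13.2 and 13.2 CPM in KO against 7.46 and 7.56 CPM in WT. Over all genes tested in MPP, 4.74% were called higher and 2.46% lower.

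The 38 Ighv segments listed for MPP alone held 5.17% and 5.53% of Ighv counts in MPP KO against 10.2% and 10.5% in MPP WT. In LT-HSC the kappa variable segments had 9 rises and 5 falls among 20 tested, where 22.5% of all genes were called higher and 10.9% lower, and their sum was 193 and 131 CPM in KO against 134 and 99.5 CPM in WT.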
